A study of Mus musculus with 6 samples.

Results

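The 8 genes *Inpp4b*, *Inpp5d*, *Inppl1*, *Phlpp1*, *Phlpp2*, *Tsc1*, *Tsc2* and *Deptor* encode proteins that restrain PI3K/AKT/mTOR signalling. They were taken by their symbols from a table of 18152 genes, and all 8 were found and passed the filter on low counts, which left 14131 genes. The NCBI gene IDs in the table matched the RefSeq entries of the symbols for 8 of 8. RNA‐seq had been performed on the inner enamel epithelium (IEE) of the mandibular first molar at E18.5, with 3 libraries for each of 2 genotypes. Control mice were *Kdf1* fl/fl, titled control and WT in the labels, and conditional knockout (cKO) mice were *K14-Cre;Kdf1* fl/fl. Both groups carried the floxed *Kdf1* alleles on a C57BL/6J background. In cKO mice, Cre recombinase was driven by the keratin 14 promoter, which is meant to delete *Kdf1* in keratin 14-expressing epithelium. Whether *Kdf1* was left intact in mesenchyme, vessels and blood was not tested here. The IEE was cut from head sections by laser capture microdissection, and whether a library came from 1 embryo or from several was not stated in the sources used here. The comparison asks whether the transcripts of these inhibitors differed between the genotypes.

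PI3K makes the membrane lipid PIP3, which recruits AKT so that it can be phosphorylated and active. Inositol phosphatases remove PIP3 or its product, the PHLPP phosphatases remove a phosphate from AKT itself, and further down the TSC complex holds mTORC1 in check until AKT phosphorylates it. DEPTOR binds the mTOR kinase directly. The IEE is the folding epithelial layer of the tooth germ, and its cells become the ameloblasts that secrete enamel.

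The libraries held 14713918 to 16675133 counts. *Kdf1* had 836, 731 and 835 estimated counts in the 3 control libraries and 0, 1 and 0 in the 3 cKO libraries, as the labels state. Values are given as counts scaled to library size (CPM) for comparisons of 1 gene between libraries, and as length-scaled transcript levels (TPM) for comparisons between genes. The 8 genes had between 45 and 2608 counts in a library, so none was near the limit of detection. All 8 marker genes of dental epithelium were detected in every library.

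The criterion of the study set limits on the size of the log2 fold change and on a Q value. How that Q value was computed was not stated in the sources used here. The study's own fit was not repeated, so whether any of the 8 genes passed there was not tested. Here the criterion was applied as a log2 fold change of 1 or more in size with a Benjamini-Hochberg adjusted p no higher than 0.05. In edgeR's quasi-likelihood test none of the 8 genes passed the criterion in this form. This fit was strict, since 61 genes of any kind passed in it and 980 in DESeq2, *Inpp4b* among them. The study reported far more differentially expressed genes than passed in this edgeR fit. Of all genes tested, 0.432% passed it (6.09% with libraries of the same replicate number treated as a pair, the replicate block, where again none of the 8 passed), and 0.545% had an adjusted p of at most 0.05 with no threshold on the fold change, which none of the 8 reached. The 61 genes behind the first share became 465 without cKO replicate 3, 16 without control replicate 2 and 1 without any of the other 4 libraries, so single libraries decide how many genes pass. The 8 genes fell into 2 kinds by the size of their difference. *Inpp4b*, *Inpp5d* and *Deptor*, the least abundant, had log2 fold changes of 1.17, 1.10 and 1.06 and unadjusted p values of at most 0.05, whereas the other 5 had differences under 0.5 in size. Unadjusted p values of at most 0.05 were found in 24.5% of all genes tested, 13.0% with a higher level in cKO mice, and log2 fold changes of at least 1 in size in 12.1%. The mean was higher in cKO mice for 7 of the 8 genes, against 49.5% of all genes tested, and the median log2 fold change was 0.24 against -0.0043 for all genes tested. The labels do not say that libraries of the same replicate number are pairs. Between such libraries, *Inpp4b*, *Inpp5d*, *Tsc1* and *Deptor* were higher in the cKO library in all 3 pairs, as were 25.7% of all genes tested. The other 4 members were higher in 1 pair of 3. In DESeq2, *Inpp4b* alone passed the criterion, as did 6.94% of all genes (12.6% had an adjusted p of at most 0.05 there).

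**Figure D1:**
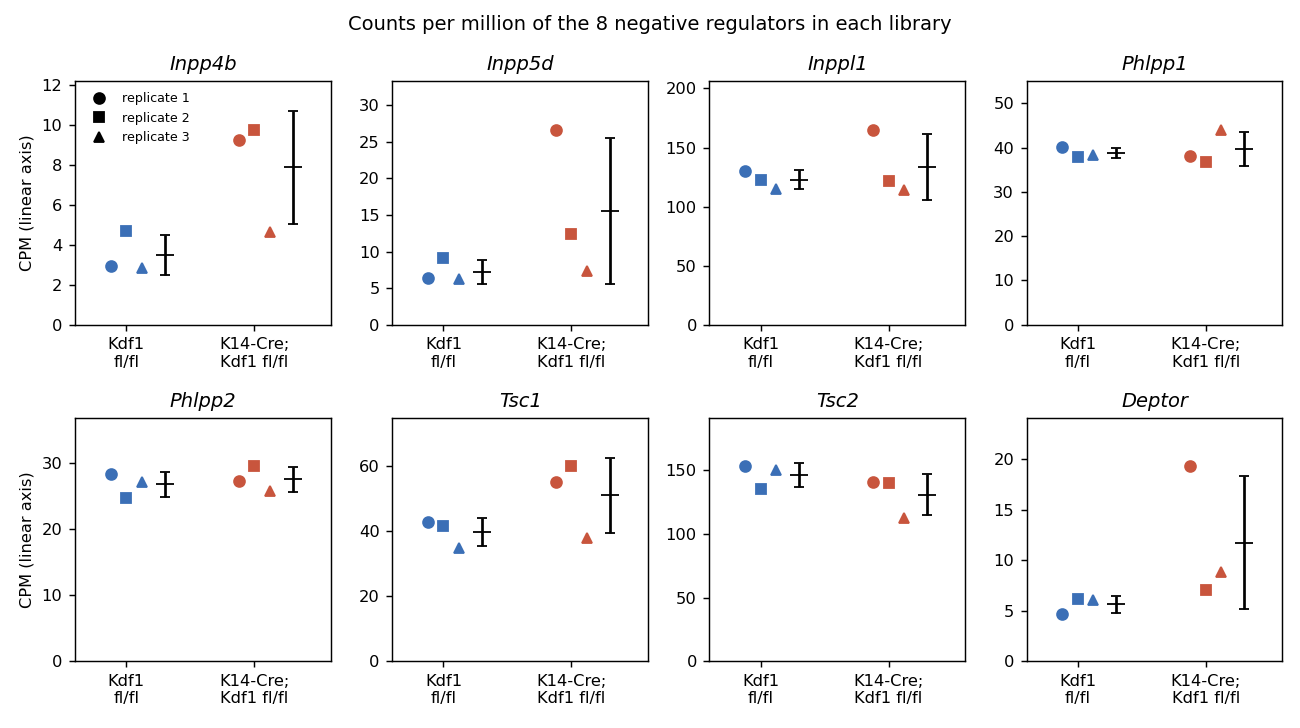
CPM (linear axes from 0) of the 8 genes in each library, with blue points for control and red points for cKO mice, a symbol for each replicate number, and bars for the mean ± SD (n = 3 per group). Replicate 1 of the cKO group stands highest for *Inpp5d* and *Deptor*, at 26.6 and 19.3 CPM, and the groups overlap in every panel except that of *Deptor*.

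The levels of the genes relative to each other were compared first. In control mice, *Inppl1* had the highest length-scaled level with a mean of 47.5 TPM, followed by *Tsc2* with 46.3 TPM, and the ranges of these 2 genes overlapped. *Phlpp1* (11.4 TPM), *Tsc1* (9.24 TPM), *Phlpp2* (6.11 TPM) and *Inpp5d* (2.87 TPM) came next, each with every library above every library of the gene after it. *Deptor* (1.19 TPM) and *Inpp4b* (0.763 TPM) were lowest, and their ranges overlapped. The genes of the widely expressed SHIP2 phosphatase and of the catalytic subunit of the TSC complex thus had the highest levels of the set. In cKO mice, *Tsc1* had a mean of 12.3 TPM and *Phlpp1* of 12.1 TPM, and *Inpp5d* (6.65 TPM) lay beside *Phlpp2* (6.60 TPM). These neighbours overlapped in range, and the other positions in the order were the same.

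**Figure D2:**
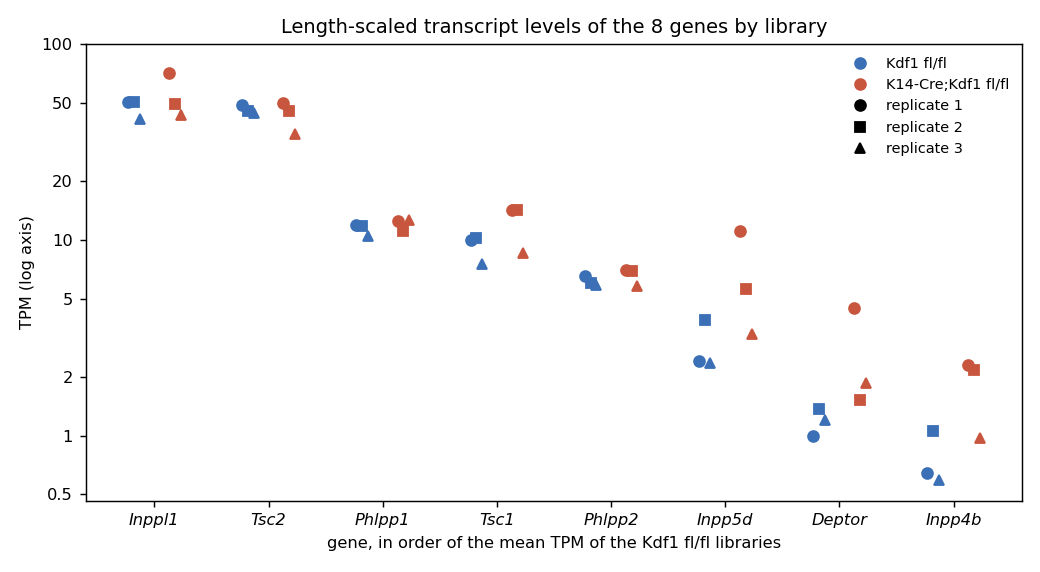
TPM (log axis) of the 8 genes in the 6 libraries, ordered by the mean of the control libraries, with blue points for control, red points for cKO and a symbol for each replicate number. *Inppl1* and *Tsc2* lie between 34.8 and 71.5 TPM in all libraries, while *Deptor* and *Inpp4b* lie between 0.590 and 4.48 TPM.

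Among the lipid phosphatases, *Inpp4b* encodes the 4-phosphatase that acts on PI(3,4)P2, the product left when PIP3 loses its 5-phosphate. *Inpp4b* had 2.95, 4.66 and 2.84 CPM in replicates 1, 2 and 3 of control mice and 9.24, 9.75 and 4.61 CPM in those of cKO mice. In cKO mice, 2 of 3 libraries were above all control libraries and the remaining one lay just under the highest of them. The log2 fold change was 1.17 (SE 0.37, 95% confidence interval 0.30 to 2.04), the largest of the 8 genes, with an adjusted p of 0.124 in edgeR's quasi-likelihood test. DESeq2 gave an adjusted p of 0.0384 and edgeR with the replicate block 0.0533, both with Benjamini-Hochberg adjustment. The genes most like *Inpp4b* over the 6 libraries, among 11597 genes with a mean of at least 5 CPM, were *Dclk2*, *Ifngr1* and *Marcks*, with Pearson correlations of log2 CPM of 0.998, 0.998 and 0.997. These correlations are a description with no test, since the 6 libraries come from 2 groups.

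*Inpp5d* and *Inppl1* encode SHIP1 and SHIP2, a pair of related 5-phosphatases that convert PIP3 to PI(3,4)P2. SHIP1 is known mainly from blood cells, whereas SHIP2 is found in most tissues. The bases before their transcription starts are shown because the 2 genes, though close relatives, differed in level and in their spread between libraries. They are the 250 bases before the start in RefSeq (GRCm38.p6), for *Inpp5d* chr1:87620062-87620311 on the plus strand and for *Inppl1* the first of its 2 entries, chr7:101838227-101838476 on the minus strand, 5′ to 3′. Capitals mark a match to GAGGAAGT, a motif bound by the blood cell factor PU.1 and other ETS proteins.
Inpp5d: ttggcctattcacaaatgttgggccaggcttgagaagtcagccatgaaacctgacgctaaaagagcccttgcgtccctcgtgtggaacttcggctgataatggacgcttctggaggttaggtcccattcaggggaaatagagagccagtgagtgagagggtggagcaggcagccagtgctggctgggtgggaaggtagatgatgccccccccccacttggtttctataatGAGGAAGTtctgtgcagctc
Inppl1: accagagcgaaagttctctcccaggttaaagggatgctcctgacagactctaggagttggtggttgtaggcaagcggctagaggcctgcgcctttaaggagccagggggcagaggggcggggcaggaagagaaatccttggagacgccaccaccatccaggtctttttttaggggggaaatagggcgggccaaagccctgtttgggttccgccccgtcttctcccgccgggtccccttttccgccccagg
The *Inpp5d* sequence held 5 CpG dinucleotides and the *Inppl1* sequence 11, against a median of 6 over 32851 promoters of the same length, and the second *Inppl1* entry, not printed, held 27. GAGGAAGT began 20 bases before the start of *Inpp5d*, was not present in the *Inppl1* sequence, and occurred on either strand in 2.44% of all promoters. The other motifs searched on both strands were CCGGAAGT of the ETS family (2.88% of all promoters), which shares its last 6 letters with GAGGAAGT, CACGTG, an E-box (6.02%), and GTAAACA, a FOXO motif (3.17%). None of these was in either sequence, and among the other members CCGGAAGT was found before the start of *Tsc2*. Promoters of 7 of the 8 genes were in the table, and *Deptor* was the other one.

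*Inpp5d* had 6.34, 9.09 and 6.25 CPM in the control libraries and 26.6, 12.5 and 7.38 CPM in the cKO libraries. Replicate 1 of the cKO group was higher than any other library, and replicate 3 of that group lay within the control range, while each cKO library was above the control library of its own replicate number. The log2 fold change was 1.10 (SE 0.46, 95% confidence interval 0.02 to 2.18) with an adjusted p of 0.197 in edgeR's quasi-likelihood test. Without replicate 1 of the cKO group it was 0.47.

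Markers of blood-derived cells moved with *Inpp5d*. Their list of 8 genes summed to 53.6 to 106 TPM in control mice and 112 to 379 TPM in cKO mice, and all 8 were detected in every library. All 8 had a higher mean in cKO mice and 4 had groups that did not overlap, against 14.5% of all genes tested. None passed the criterion in edgeR, where 7 had an unadjusted p of up to 0.05. Such a p with a higher level was found in 13.0% of all genes tested. With DESeq2, 5 of the 8 passed, and 1 did with the replicate block. *Ptprc*, which encodes the common leukocyte antigen CD45, was at 1.82, 5.03 and 1.58 CPM in control mice and 8.54, 3.71 and 1.78 CPM in cKO mice. Per 100 TPM of the summed markers, *Inpp5d* was at 4.28, 3.63 and 4.39 TPM in control libraries and 2.92, 3.22 and 2.96 TPM in cKO libraries, a ratio chosen after the values had been seen. This ratio was lower in the 3 cKO libraries than in the 3 control libraries. The part of blood-derived cells in the *Inpp5d* difference was not tested, and in tissue of mixed cells, more cells of a type and more RNA per cell cannot be told apart.

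**Figure D3:**
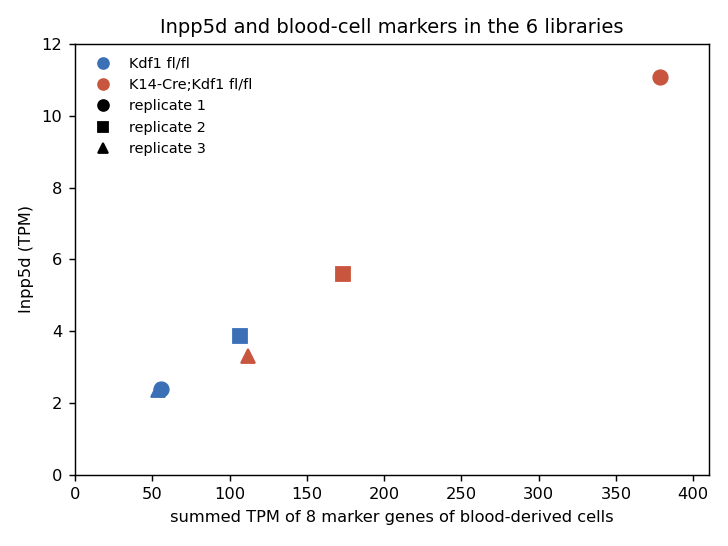
*Inpp5d* (TPM) against the summed TPM of 8 marker genes of blood-derived cells, with 1 point per library, blue for control and red for cKO, and a symbol for each replicate number (linear axes from 0). The library with the highest marker sum, 379 TPM, also had the highest *Inpp5d*, 11.1 TPM, and the 6 points come from 2 groups, so no correlation is given.

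*Inppl1* was steadier than its relative. It had 131, 123 and 115 CPM in control mice and 165, 121 and 114 CPM in cKO mice, so that only replicate 1 of the cKO group was above the control range. The log2 fold change was 0.12 (SE 0.16, 95% confidence interval -0.25 to 0.50, adjusted p = 0.674 in edgeR). Its direction turned to -0.04 without that library.

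The PHLPP phosphatases, which dephosphorylate AKT at its hydrophobic motif, had the smallest differences of the set. *Phlpp1* had 40.2, 37.9 and 38.3 CPM in control mice and 38.2, 36.7 and 44.0 CPM in cKO mice. *Phlpp2* had 28.4, 24.8 and 27.2 CPM in control mice and 27.3, 29.5 and 25.8 CPM in cKO mice. For both genes the groups overlapped widely. The log2 fold changes were 0.03 (95% confidence interval -0.25 to 0.31) for *Phlpp1* and 0.04 (-0.27 to 0.35) for *Phlpp2*, with adjusted p values of 0.898 and 0.877 in edgeR. The differences were smaller than the spread between libraries, and the intervals include differences of up to 0.35 in log2.

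*Tsc1* and *Tsc2* encode hamartin and tuberin, the partners of the TSC complex. Tuberin switches off the small GTPase RHEB, the activator of mTORC1, and hamartin stabilises tuberin. *Tsc1* had 42.9, 41.4 and 34.9 CPM in control mice and 55.0, 59.8 and 38.0 CPM in cKO mice. Replicates 1 and 2 of the cKO group were above the control range and replicate 3 was within it. *Tsc2* pointed the other way, with 153, 135 and 150 CPM in control mice and 140, 140 and 112 CPM in cKO mice. Here replicate 3 of the cKO group alone lay under the control range. The log2 fold changes were 0.36 (SE 0.19, 95% confidence interval -0.09 to 0.80, adjusted p = 0.287 in edgeR) for *Tsc1* and -0.16 (SE 0.13, -0.46 to 0.14, adjusted p = 0.470) for *Tsc2*. *Tsc2* was the member whose estimated counts were not whole in any of the 6 libraries, and its annotated span overlaps that of *Pkd1*, so reads from the overlap may have been divided between them. *Inppl1* likewise overlaps *Phox2a*, but its counts were whole.

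*Deptor* encodes the inhibitor that binds mTOR in both of its complexes. It had 4.71, 6.18 and 6.06 CPM in control mice and 19.3, 7.11 and 8.90 CPM in cKO mice. *Deptor* was the only one of the 8 genes whose groups did not overlap, which was the case for 30.7% of all genes tested and in this direction for 14.5%. The log2 fold change was 1.06 (SE 0.39, 95% confidence interval 0.13 to 1.99), with an adjusted p of 0.162 in edgeR's quasi-likelihood test and 0.0782 in DESeq2. Replicate 1 of the cKO group held much of this difference, and without it the log2 fold change was 0.52.

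Markers of other tissues were examined beside *Deptor* and *Inpp4b*. The 6 endothelial markers, all detected in every library, summed to 128 to 173 TPM in control mice and 170 to 502 TPM in cKO mice, the highest value being that of replicate 1. All 6 had a higher mean in cKO mice, and none passed the criterion in edgeR (4 had an unadjusted p of at most 0.05 and 1 passed in DESeq2). Of all genes tested, 13.0% had such an unadjusted p with a higher level, and 6.94% passed in DESeq2 in either direction. Of the 9 markers of dental mesenchyme, 1 passed the criterion in edgeR, *Twist1*, with a higher level in cKO mice. With the replicate block 5 passed with a higher level and 1 with a lower level, and in DESeq2 4 and 1. In CPM, the groups did not overlap for 5 with a higher level and 1 with a lower level. In either direction this was so for 30.7% of all genes tested. The sum of the 9 was 1445 to 8207 TPM in control mice and 3952 to 4754 TPM in cKO mice. *Col1a1* was its largest term in every library, so the sum says little about the less abundant markers. Of the 8 markers of dental epithelium, *Cdh1*, the E-cadherin gene, passed the criterion with a lower level (4 lower with the replicate block and 3 in DESeq2). The mean was lower in cKO mice for 7 of the 8, and the sum was 12138 to 43280 TPM in control mice and 4174 to 7533 TPM in cKO mice. The bone, cartilage, Schwann cell and skeletal muscle lists summed to at most 1651, 14.6, 21.3 and 7.02 TPM in any library. After the filter on low counts 4, 2, 2 and 1 of their genes were tested, and none of these passed in edgeR. The bone gene *Alpl* had an adjusted p of 0.0498 in edgeR, with a log2 fold change of -0.93. Unadjusted p values were at most 0.05 for 2 bone and 2 cartilage genes, against 24.5% of all genes tested. In DESeq2 1 bone and 1 cartilage gene passed, and 1 cartilage gene did with the replicate block. What part the other tissues had in the levels of *Deptor* and *Inpp4b* was not tested.

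Ratios of paired genes within a library do not depend on how libraries are scaled, and 5 were compared by two-sided exact permutation tests over libraries, where 3 against 3 allows no p under 0.1. The *Tsc1* to *Tsc2* ratio of TPM was 0.205, 0.223 and 0.169 in control mice and 0.286, 0.310 and 0.246 in cKO mice. The groups did not overlap, and the difference of the log2 ratio was 0.50 (exact permutation p = 0.1, 0.167 after Benjamini-Hochberg adjustment over the 5 ratios). This p is the smallest that the design allows and cannot pass a threshold of 0.05, and no share of non-overlapping ratios among other gene pairs was computed.

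The ratio of *Deptor* to *Mtor*, the inhibitor to its kinase, was 0.0470, 0.0630 and 0.0537 in control mice and 0.247, 0.120 and 0.121 in cKO mice, a log2 difference of 1.50 (exact permutation p = 0.1, adjusted 0.167). All 3 cKO libraries lay above all 3 control libraries. *Mtor* itself had a log2 fold change of -0.63 (adjusted p = 0.0637 in edgeR and 0.00187 in DESeq2). The ratio of *Inpp4b* to its relative *Inpp4a* was 0.0572, 0.0594 and 0.0526 in control mice and 0.165, 0.181 and 0.0617 in cKO mice, with a log2 difference of 1.12 (exact permutation p = 0.1, adjusted 0.167). Replicate 3 of the cKO group lay close to the control values. The ratios of *Inppl1* to *Inpp5d* (log2 difference -0.90, exact permutation p = 0.2) and of *Phlpp1* to *Phlpp2* (-0.02, exact permutation p = 0.8) overlapped between the groups, and the latter changed sign with single libraries left out.

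**Figure D4:**
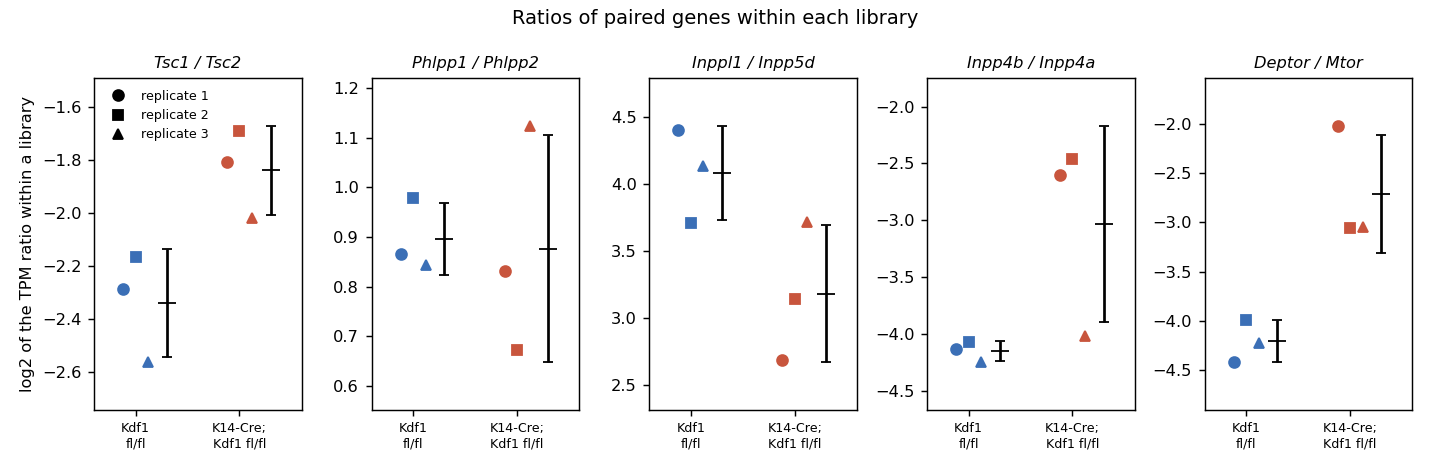
Log2 ratios of TPM of 5 gene pairs within each library, with blue points for control, red points for cKO, a symbol for each replicate number and bars for the mean ± SD (n = 3 per group); each panel has its own axis, which does not start at 0. The groups are apart for *Tsc1* to *Tsc2*, *Inpp4b* to *Inpp4a* and *Deptor* to *Mtor*, with mean log2 differences of 0.50, 1.12 and 1.50.

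Other negative regulators of the pathway were examined as 3 lists with 35 genes, of which 34 were tested. None passed the criterion in edgeR, and the median log2 fold change was -0.05. Their unadjusted edgeR p was 0.05 or less for 6 with a higher level and 4 with a lower level in cKO mice. In either direction this was so for 24.5% of all genes tested. In DESeq2, 2 of the 34 passed, and so they did in edgeR with the replicate block, where 6.09% of all genes passed. These 2 genes, named because of that result, were *Grb10* and *Ddit4l*. *Grb10*, an imprinted gene whose adaptor protein dampens insulin and IGF receptor signalling, had 59.0, 120 and 51.9 CPM in control mice and 613, 304 and 153 CPM in cKO mice. *Ddit4l*, which encodes the mTORC1 inhibitor REDD2, had 4.96, 10.2 and 3.10 CPM in control mice and 39.3, 25.2 and 14.04 CPM in cKO mice. In both genes replicate 1 of the cKO group was highest and the groups did not overlap, as for 14.5% of all genes tested in this direction. Of the 9 markers of dental mesenchyme, *Prrx1*, *Twist1* and *Col3a1* had the same order of cKO libraries. *Prrx1* had 266, 116 and 86.0 CPM against 21.9, 40.3 and 15.5 CPM in control mice. *Twist1* had 75.9, 45.8 and 41.9 CPM against 9.29, 16.5 and 8.97 CPM. *Col1a1*, *Col1a2*, *Prrx2*, *Pdgfra*, *Lum* and *Dspp* had other orders. The part of mesenchyme in the levels of *Grb10* and *Ddit4l* was not tested. The log2 fold changes of *Grb10* and *Ddit4l* were 2.21 (SE 0.55) and 2.10 (SE 0.52). Adjusted p values were 0.0842 for each in edgeR's quasi-likelihood test, 0.0394 and 0.0194 with the replicate block, and 0.000249 and 0.000954 in DESeq2.

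Direct relatives and partners of the 8 genes were named from a list, whatever their values. *Tbc1d7*, the further subunit of the TSC complex, had a log2 fold change of -0.12 (95% confidence interval -0.54 to 0.30), and *Inpp4a* of -0.02 (-0.47 to 0.43). *Ddit4*, which encodes the stress-induced inhibitor REDD1, was at 0.07 (-0.43 to 0.57), and *Akt1s1*, which encodes the mTORC1 inhibitor PRAS40, at 0.17 (-0.06 to 0.39). None of these intervals excluded 0. *Pik3ip1*, an inhibitor of the PI3K catalytic subunit, was at 71.4 ± 1.23 CPM in control and 94.5 ± 8.49 CPM in cKO mice (SD, n = 3 per group), and its log2 fold change was 0.40 (SE 0.11, with an adjusted p of 0.0938 in edgeR and 0.0141 in DESeq2). *Depdc5*, a subunit of the GATOR1 complex that restrains mTORC1 when amino acids are scarce, was at 47.8 ± 0.457 and 34.1 ± 5.67 CPM (SD, n = 3 per group), and its log2 fold change was -0.49 (SE 0.15, with an adjusted p of 0.115 in edgeR and 0.0703 in DESeq2). The groups did not overlap for *Pik3ip1* or *Depdc5*, as for 30.7% of all genes tested, and their differences had opposite signs.

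The kinases and partners that these inhibitors oppose were a list of 20 genes, all tested. None passed the criterion in edgeR or in DESeq2, and the median log2 fold change was -0.08. Their unadjusted edgeR p was 0.05 or less for 2 with a higher level and 5 with a lower level. In either direction this was so for 24.5% of all genes tested. *Akt1*, *Akt2* and *Rheb* had log2 fold changes of -0.02, -0.04 and -0.03, all with confidence intervals that included 0. *Mtor* was at 96.9, 91.5 and 99.7 CPM in control mice and 69.7, 54.6 and 62.0 CPM in cKO mice, so that its groups did not overlap. Its adjusted p of 0.0637 in edgeR became 0.0256 with the replicate block. *Pik3ca*, which encodes a catalytic subunit of PI3K and was chosen after its values had been seen, pointed the other way, with 49.7, 49.4 and 50.4 CPM in control mice and 71.1, 57.5 and 70.0 CPM in cKO mice. These groups did not overlap either, which was the case for 30.7% of all genes tested. The log2 fold change of *Pik3ca* was 0.41 (SE 0.12), with an adjusted p of 0.112 in edgeR and 0.0429 in DESeq2.

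**Figure D5:**
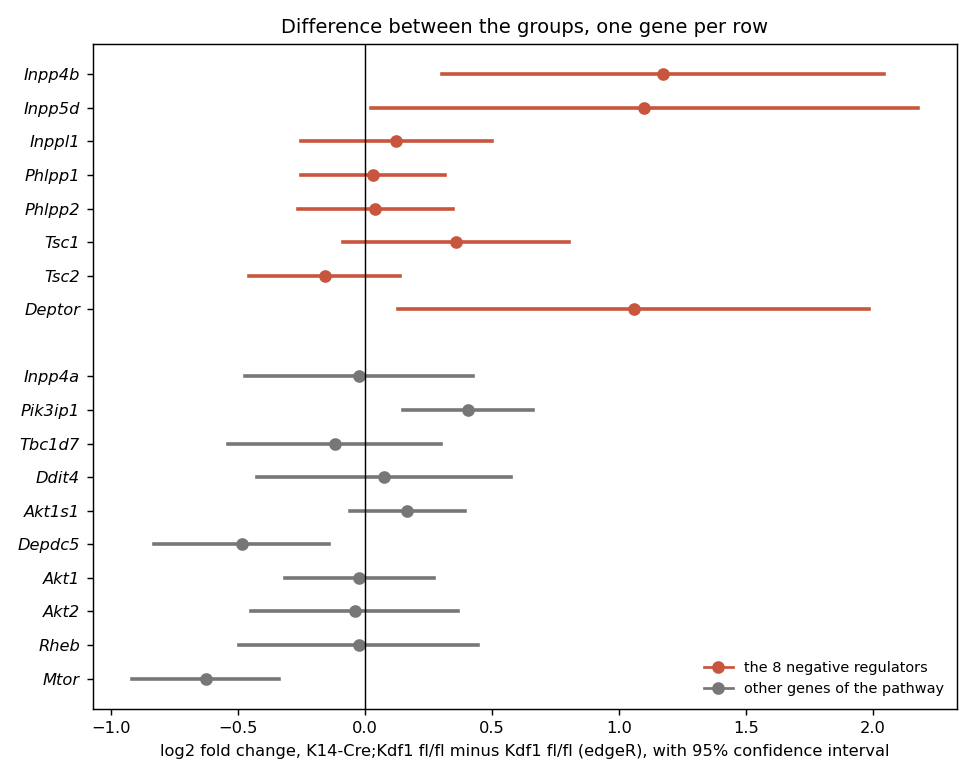
Log2 fold changes, cKO minus control, from edgeR with 95% confidence intervals (bars) for the 8 negative regulators (red) and 10 other genes of the pathway (grey), not adjusted for the number of genes. The intervals of *Inpp4b*, *Inpp5d* and *Deptor* lie above 0 and are wide, the lowest bound being 0.02, while those of the other 5 members include 0.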

How the data were processed

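The authors deposited 1 table with estimated counts, FPKM and TPM per gene and library. Per the labels, the libraries were made with a TruSeq kit from 1 μg of total RNA, and the submitters' processing notes name BWA 0.7.12, Picard 2.6.0 and StringTie. The genome build and the strand setting were not given in the sources used here, so the only coordinates printed are those of RefSeq promoters. The deposited estimated counts, 10.9% to 11.5% of which were not whole, were rounded. The deposited FPKM values were not used, and the deposited TPM values, scaled by length by the authors, served for levels and ratios. Columns with the authors' means were not used.

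Genes were filtered by edgeR's filterByExpr (edgeR 4.0.16 in R 4.3.3), scaled by TMM and compared by robust quasi-likelihood F-tests over 14131 genes with Benjamini-Hochberg adjustment. The biological coefficient of variation was 25.4%. DESeq2 1.42.0 and limma 3.58.1 were alternatives, as were other scalings, filters, a replicate block and the omission of each library. The edgeR, DESeq2, limma-voom and replicate block fits, but not limma on TPM, were run on simulated counts with changes added to known genes. That simulation gave every library the same spread, so it does not bear on how single libraries move the calls here. Deviations of libraries with the same replicate number correlated at 0.135, 0.324 and 0.499, while cKO replicate 1 correlated at 0.144 with control replicate 2. Neither the labels nor the study pair these libraries. The numbers were read as pairs for the block on these correlations alone, which come from the same data. P values of the fits set a difference against the spread between these libraries. What spread between animals this reflects is unknown, since the number of embryos per library was not stated.

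The 8 genes and the lists of pathway and marker genes were chosen with earlier results of these data known. Genes named were the 8 members, *Kdf1*, 10 fixed relatives and partners (1 more is not reported here), any list gene past the criterion, and the 3 genes most correlated with the member of the largest fold change. Others were chosen after their values were seen.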

Additional observations from a re-analysis of the deposited data

How the results depend on the processing

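The count of the 8 genes past the criterion was 0 in edgeR and 1 (*Inpp4b*, higher) in DESeq2, and the count with an adjusted p of at most 0.05 was likewise 0 and 1. Both were 0 under the other scalings, filters and limma fits, and with each library left out (0 to 0). In most of these fits few genes of any kind passed the criterion, but 465 did without replicate 3 of the cKO group. Against 61 in the fit reported, 6 genes passed in limma-voom, 16 and 52 in limma on log2(TPM + 1) and log2(TPM + 0.1), 7 with DESeq2 size factors, 61 with upper quartile scaling, 9 with library size alone, 6 with the stricter filter and 103 with none, while 980 passed in DESeq2 and 860 with the replicate block. A count of 0 of 8 in fits with so few calls does not show stability. For the other negative regulators the count was 0, and 2 in DESeq2 and with the replicate block. It ranged from 0 to 1 with 1 library left out, the 1 being *Grb10* without replicate 3 of the cKO group. The count of kinases and partners was 0 throughout, with the replicate block too, and 0 to 0 with libraries left out. The replicate block changed no call for the 8 genes, and *Inpp4b* had an adjusted p of 0.0533 with it (edgeR, Benjamini-Hochberg).

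The log2 fold changes of *Inpp4b*, *Tsc1*, *Tsc2*, *Deptor* and *Inpp5d* kept their sign in every fit. With 1 library left out they ranged from 1.02 to 1.46, 0.26 to 0.55, -0.22 to -0.04, 0.52 to 1.35 and 0.47 to 1.45. *Inppl1* ranged from -0.04 to 0.25, *Phlpp1* from -0.03 to 0.11 and *Phlpp2* from -0.02 to 0.10, so that each changed sign once, to -0.0432 without cKO replicate 1, -0.0328 without cKO replicate 3 and -0.0195 without control replicate 2. On log2(TPM + 1), *Inpp4b* was at 0.64 and *Deptor* at 0.64. The difference of the *Phlpp1* to *Phlpp2* ratio ranged from -0.14 to 0.0816 with libraries left out (0.0816, 0.00195 and 0.0211 without cKO replicate 2, cKO replicate 1 and control replicate 2). The ratios of *Tsc1* to *Tsc2*, *Inpp4b* to *Inpp4a*, *Deptor* to *Mtor* and *Inppl1* to *Inpp5d* kept their sign, at 0.39 to 0.59, 0.84 to 1.62, 1.15 to 1.67 and -1.17 to -0.66. With the replicate numbers paired, an exact sign-flip permutation allows no p under 0.25, which these 4 reached. The causes of these shifts were not tested.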
